A study of Mus musculus with 12 samples.

Results

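The BBSome is a coat-like complex of 8 subunits that carries membrane proteins into and out of cilia. The 10 genes described here are the 8 subunits Bbs1, Bbs2, Bbs4, Bbs5, Bbs7, Bbs9, Ttc8 and Bbip1, the small GTPase Arl6 and the regulator Lztfl1. They were chosen by gene name, and all 10 were found among the 56748 genes listed. Their mRNA was measured by RNA sequencing in 12 mouse libraries, 3 in each of 4 groups, to ask how the loss of Shp2 (Ptpn11), a tyrosine phosphatase, alters the mRNA that rods translate. All mice were 2 weeks old, were homozygous for RiboTag (a floxed Rpl22 gene that gives an HA-tagged ribosomal protein after Cre) and carried i75-Rod-Cre, which is driven by a promoter active in rods. The control mice (RiboTag;Shp2fl/+;i75-Rod-Cre, called Het) could therefore lose 1 Shp2 allele in rods too, and in the knockout mice, called KO (RiboTag;Shp2fl/fl;i75-Rod-Cre), both could be lost. From each genotype there were 3 libraries of RNA bound to tagged ribosomes (Het rods and KO rods, translating ribosome affinity purification) and 3 of total retinal RNA (Het retina and KO retina). No source used here states whether rod and retina libraries with the same number came from 1 mouse, so p-values measure the spread between these libraries.

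A rod outer segment is a modified cilium, filled with discs that hold the phototransduction proteins, and it is built behind a narrow connecting cilium. Arl6 in its GTP-bound form brings the BBSome to the membrane, where the complex picks up cargo and travels with intraflagellar transport (IFT) trains. In photoreceptors the BBSome is best known for returning proteins that do not belong in the outer segment, among them the inner segment syntaxin Stx3. Inherited loss of these genes causes Bardet-Biedl syndrome, in which photoreceptors degenerate.

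Values are given on 1 scale for all 12 libraries, the deposited value divided by a library factor (trimmed mean of M-values, TMM), and are called TMM-scaled values. A gene passed the test at an adjusted p (limma, Benjamini-Hochberg over all genes tested) below 0.05 with a log2 fold change above 0.5 in either direction. Deposited totals lay between 16263948 and 16265259 in rod libraries and between 14525527 and 14527992 in retina libraries, and the estimated reads behind them ran from 11890000 to 25280000 in rods and from 9980000 to 19230000 in 5 of 6 retina libraries. The lowest value of any member in any library was 646.6, for Lztfl1 in KO retina replicate 3. The rod markers Gnat1 and Nrl were higher in Het rods than in Het retina, by log2 fold changes of 1.96 (SE 0.13, adjusted p = 5.7e-06, limma) and 1.83 (SE 0.11, adjusted p = 3.0e-06, limma). Summed markers of other cells were lower in Het rods, at 0.0127% to 0.0219% against 0.365% to 0.521% for 9 Muller cell genes and 0.0344% to 0.0533% against 0.108% to 0.133% for 10 cone genes, and no marker was at 0 in all 6 rod libraries. Of the markers of other retinal cells, Prkca of bipolar cells had the highest value in a rod library. Summed mRNA of 7 lens markers (5 crystallins, Bfsp1 and Bfsp2) took 0.00373% (Het retina replicate 1) to 5.65% (KO retina replicate 3) of the retina totals and at most 0.0883% in rods. Ptpn11 was at 2674, 2670 and 2623 in Het rods and at 2045, 2560 and 2290 in KO rods, so the groups did not overlap, as for 19% of all genes in this direction. The difference of -0.23 log2 units did not pass (adjusted p = 0.0696, limma). With RLE scaling (-0.27, adjusted p = 0.0491), library totals alone (-0.34, adjusted p = 0.0135) or the GC trend removed (-0.27, adjusted p = 0.0447, all limma) only the fold threshold was missed. This gene total also counts exons outside the floxed part, so it does not measure the deletion directly.

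All 10 genes were higher in rod-bound RNA than in whole retina of Het mice, by 1.83-fold (Bbip1) to 3.35-fold (Bbs7). The count of 10 of 10 stands against 22.7% of all 16110 genes tested that passed in this direction, and the rod values lay above all retina values for all 10, against 29.5% of all genes. The members' median log2 fold change was 1.35, against -0.08 over all genes tested and 1.81 over a list of 16 rod markers. Fewer cells of a type and less RNA per cell cannot be told apart in such samples, and the part of the rod markers' own rise in the members' rise was not tested. The scale matters for size: with library totals alone the median of all genes moved to -0.51, the members' median was 0.91, and Bbip1 no longer passed (0.43, adjusted p = 0.0464, limma).

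**Figure D1:**
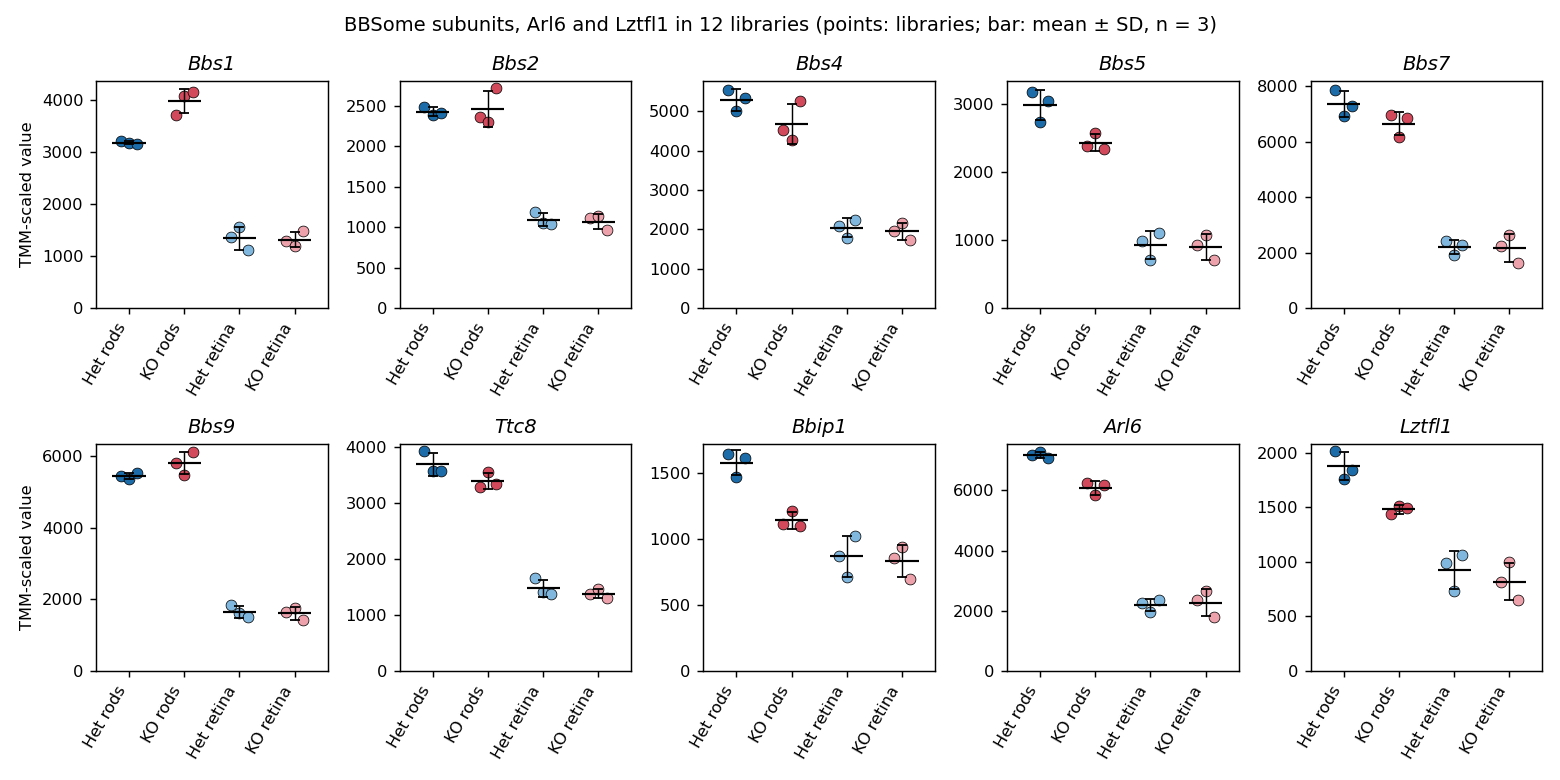
TMM-scaled value of each member (vertical axes, each from 0) in the 12 libraries, with 3 points per group and the mean ± SD in black. In every panel the 6 rod points lie above the 6 retina points, and in rods the KO points of Bbs1 lie above the Het points while those of Bbs5, Ttc8, Bbip1, Arl6 and Lztfl1 lie below.

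Bbs2, Bbs7 and Bbs9 form the core on which the other subunits assemble. Bbs7 had TMM-scaled values of 7877, 6926 and 7302 in Het rods, 6955, 6176 and 6840 in KO rods, 2429, 1920 and 2263 in Het retina, and 2246, 2636 and 1621 in KO retina. It had the largest rod to retina difference of the 10 in Het mice, a log2 fold change of 1.75 (SE 0.12, adjusted p = 6.3e-06, limma), and the Het and KO rod values overlapped.

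Bbs9 was at 5437, 5358 and 5540 in Het rods, at 5818, 5484 and 6104 in KO rods, at 1837, 1627 and 1493 in Het retina and at 1653, 1767 and 1416 in KO retina. Its 3 Het rod values were within a narrow range (mean 5445 ± 91.4, SD, n = 3), and its rod to retina difference was 1.72 (SE 0.11, adjusted p = 4.3e-06, limma). Bbs2 was less enriched, with 2485, 2382 and 2408 in Het rods, 2362, 2293 and 2715 in KO rods, 1187, 1055 and 1035 in Het retina, and 1108, 1134 and 965.7 in KO retina. Its difference of 1.15 in Het mice (SE 0.11, adjusted p = 2.8e-05, limma) lay below those of Bbs7 and Bbs9 with no overlap of the 95% confidence intervals (0.91 to 1.40 against 1.47 to 2.02 and 1.47 to 1.98), although the differences between genes were not tested.

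Bbs1 is the subunit that binds Arl6. It stood at 3222, 3180 and 3152 in Het rods, 3716, 4078 and 4147 in KO rods, 1368, 1553 and 1115 in Het retina, and 1283, 1188 and 1477 in KO retina. The rod to retina difference was 1.26 in Het mice (SE 0.14, adjusted p = 6.6e-05, limma) and 1.59 in KO mice (SE 0.12, adjusted p = 6.4e-06, limma). Bbs1 was the only member whose 3 KO rod values all lay above the 3 Het rod values.

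Bbs5, which has pleckstrin homology domains that bind phosphoinositides, was at 3175, 2735 and 3035 in Het rods, at 2372, 2570 and 2335 in KO rods, at 980.6, 703.4 and 1097 in Het retina and at 927.5, 1078 and 700.5 in KO retina. Its rod to retina difference was 1.71 in Het mice (SE 0.17, adjusted p = 4.3e-05, limma), close to that of Bbs7. Bbs4 and Ttc8 (also called Bbs8) are the subunits made of tetratricopeptide repeats. Bbs4 was at 5556, 5002 and 5344 in Het rods, at 4519, 4285 and 5264 in KO rods, at 2100, 1780 and 2248 in Het retina and at 1960, 2165 and 1742 in KO retina. Ttc8 was at 3921, 3564 and 3573 in Het rods, at 3284, 3545 and 3342 in KO rods, at 1648, 1403 and 1377 in Het retina and at 1378, 1455 and 1302 in KO retina. Both lay in the middle of the 10 for enrichment in Het rods, with 1.38 for Bbs4 (SE 0.12, adjusted p = 2.0e-05, limma) and 1.32 for Ttc8 (SE 0.11, adjusted p = 2.0e-05, limma).

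Bbip1, the smallest subunit and a link between the others, was the least enriched member. Its values were 1649, 1471 and 1618 in Het rods, 1112, 1215 and 1098 in KO rods, 872.6, 709.8 and 1025 in Het retina, and 856.5, 940.3 and 698.7 in KO retina. The Het rod to retina difference was 0.87 (SE 0.15, adjusted p = 9.8e-04, limma). In KO mice it was 0.46 (SE 0.14, adjusted p = 0.0171, limma), under the fold threshold, although all 3 KO rod values were above the KO retina values.

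Arl6, the GTPase, had 7191, 7270 and 7072 in Het rods, 6235, 5831 and 6176 in KO rods, 2251, 1964 and 2350 in Het retina, and 2360, 2658 and 1778 in KO retina. It was 3.29-fold higher in Het rods than in Het retina (log2 fold change 1.72, SE 0.11, adjusted p = 3.6e-06, limma). Lztfl1 binds the BBSome and holds back its entry into cilia. It was at 2012, 1760 and 1844 in Het rods, at 1433, 1511 and 1491 in KO rods, at 985.8, 729.1 and 1062 in Het retina and at 814.9, 993.6 and 646.6 in KO retina. Its difference of 1.03 in Het mice (SE 0.16, adjusted p = 4.8e-04, limma) was smaller than that of Arl6, and their 95% confidence intervals did not overlap (0.67 to 1.39 against 1.47 to 1.96).

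In KO mice the same comparison gave 9 of 10 members higher in rods, against 26.9% of 16121 genes tested, with Bbip1 the exception. Bbip1 passed, for 10 of 10, with the GC trend removed (0.52, adjusted p = 5.2e-04, limma) and without KO retina replicate 2 (0.57, adjusted p = 0.00732, limma). The members' median was 1.36 against 0.01 over all genes, and the range ran from 0.46 for Bbip1 to 1.84 for Bbs9 (SE 0.12, adjusted p = 4.3e-06, limma). All 10 had 3 KO rod values above all KO retina values, against 34.3% of all genes. With library totals alone, Lztfl1 (0.30, adjusted p = 0.161, limma) no longer passed and Bbip1 turned to -0.10 (adjusted p = 0.587, limma), while the median of all genes moved to -0.55.

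To compare levels between genes, TMM-scaled values were divided by the length of the longest annotated transcript, giving a level per kb. In Het rods Arl6 was the most abundant at 4232 ± 59 per kb (SD, n = 3), followed by Bbs7 at 2742 ± 178, and neither overlapped its neighbour in the order. Bbs4 (2105 ± 111) and Bbs5 (2031 ± 153) overlapped each other, as did Ttc8 (1622 ± 89.7) and Bbs9 (1558 ± 26.1), and Bbs2 (791.4 ± 17.5) and Bbip1 (773.1 ± 46.5). Bbs1 (568.5 ± 6.27) and Lztfl1 (286.2 ± 19.6) came last and stood apart. The mean levels per kb of the 8 subunits spanned a 4.82-fold range in Het rods. In whole retina Arl6 was again first (1290 ± 118 per kb in Het retina) and Bbs1 and Lztfl1 last, but in Het retina the ranges of all neighbours from Bbs7 down to Bbs2 overlapped. These levels depend on the length used, 1468 bases for Bbs5 to 6541 bases for Lztfl1, and are understated where a shorter form than the longest is expressed.

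The share of each subunit in the summed per-kb level of the 8 subunits shows the make-up of the complex's mRNA. Bbs7 made up 22.5% ± 0.40 (SD, n = 3) of the sum in Het rods and 18.6% ± 0.55 in Het retina, and Bbip1 made up 6.34% ± 0.14 and 9.62% ± 1.2. In KO rods the share of Bbip1 was 4.99% ± 0.41 and that of Bbs1 6.34% ± 0.33, against 4.67% ± 0.20 for Bbs1 in Het rods. The ranges of 5 of 8 shares did not overlap between Het and KO rods. The share was higher in KO rods for Bbs1 (4.50% to 4.90% in Het rods against 5.98% to 6.65%), Bbs2 (6.35% to 6.70% against 6.83% to 7.63%) and Bbs9 (12.2% to 13.2% against 14.3% to 15%). It was lower for Bbip1 (6.21% to 6.49% against 4.63% to 5.43%) and Bbs5 (16.1% to 16.9% against 13.7% to 16%). These shares are descriptions and were not tested, and no background count is given for them. The 8 shares add up to the whole in each library, so a rise of some lowers others and the 5 are not independent. By TMM-scaled value, a different measure, 28.1% of all genes lay above and 19% below in KO rods without overlap. The higher shares were those of the subunits with the highest transcript GC (Bbs1 51.79%, Bbs2 50.07%, Bbs9 48.70%). The lower ones were those of the subunits with the lowest (Bbs5 39.92%, Bbip1 40.63%). GC-rich genes also stood higher relative to GC-poor genes in every KO rod library than in any Het rod library. The part of this GC trend in the shares was not tested. The 10 genes together took 0.223% to 0.246% of the deposited total in Het rods, 0.190% to 0.209% in KO rods, and 0.0914% to 0.126% in retina.

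**Figure D2:**
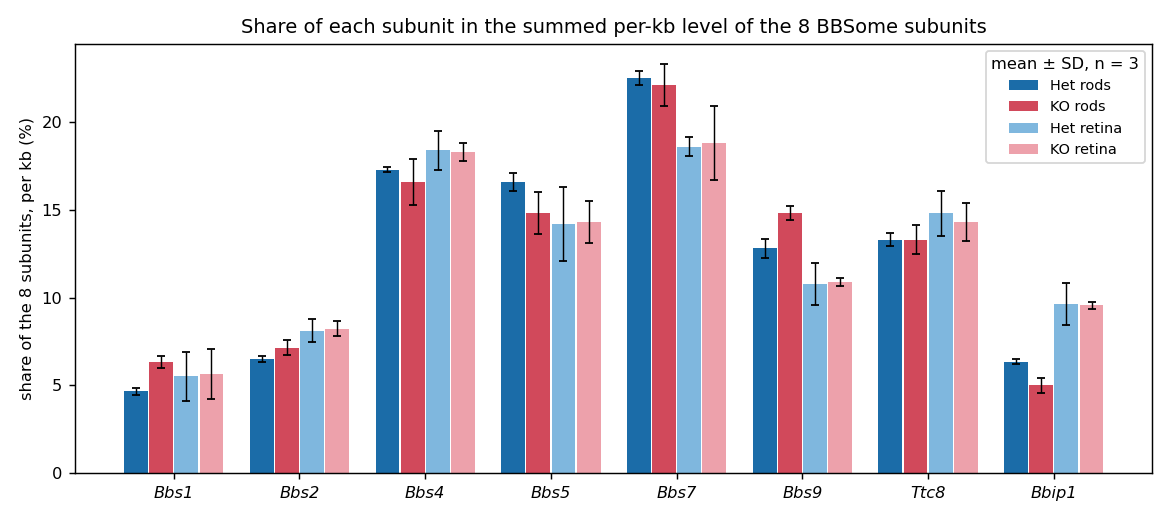
Share of each subunit (horizontal axis) in the summed TMM-scaled level per kb of the 8 BBSome subunits (vertical axis, %), as the mean ± SD of 3 libraries per group. Bbs7 has the largest share in all 4 groups, the share of Bbip1 is lower in both rod groups than in both retina groups, and the share of Bbs1 is 4.67% in Het rods and 6.34% in KO rods.

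None of the 10 members passed the test between KO and Het rods. Over all 10134 genes tested, 13.2% passed as higher in KO rods and 1.86% as lower. The members' log2 differences ran from -0.49 (Bbip1) to 0.30 (Bbs1), with a median of -0.18 against -0.01 over all genes. At any fold, 5 members had an adjusted p below 0.05, 1 of them higher in KO rods (19.4% of all genes) and 4 lower (9.43% of all genes). The higher one was Bbs1, by 0.30 (SE 0.07, adjusted p = 0.0134, limma). The lower ones were Bbip1 (SE 0.09, adjusted p = 0.00389), Lztfl1 at -0.36 (SE 0.08, adjusted p = 0.00975), Bbs5 at -0.32 (SE 0.09, adjusted p = 0.019) and Arl6 at -0.26 (SE 0.07, adjusted p = 0.0183), all from limma. Bbip1 lay just inside the fold threshold, with a 95% confidence interval of -0.68 to -0.30, and it passed as lower with RLE scaling (-0.52), with library totals alone (-0.59), and without replicate 2 of Het rods or of KO rods (-0.57 in both). With 1 spread estimated over all 12 libraries, 0 of 11336 genes passed (limma).

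By their values, Bbs1 was above in all 3 KO rod libraries (28.1% of all genes), and Bbs5, Ttc8, Bbip1, Arl6 and Lztfl1 were below in all 3 (19% of all genes). The KO and Het ranges of Bbs2, Bbs4, Bbs7 and Bbs9 overlapped, and their 95% confidence intervals, from -0.40 to -0.01 for Bbs4 and from -0.09 to 0.23 for Bbs9 at the extremes, did not reach 0.5 in either direction. Rod markers moved beside this result, with 5 of 16 higher in KO rods (13.2% of all genes) and none lower (1.86%). Their part in the members' differences was not tested.

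**Figure D3:**
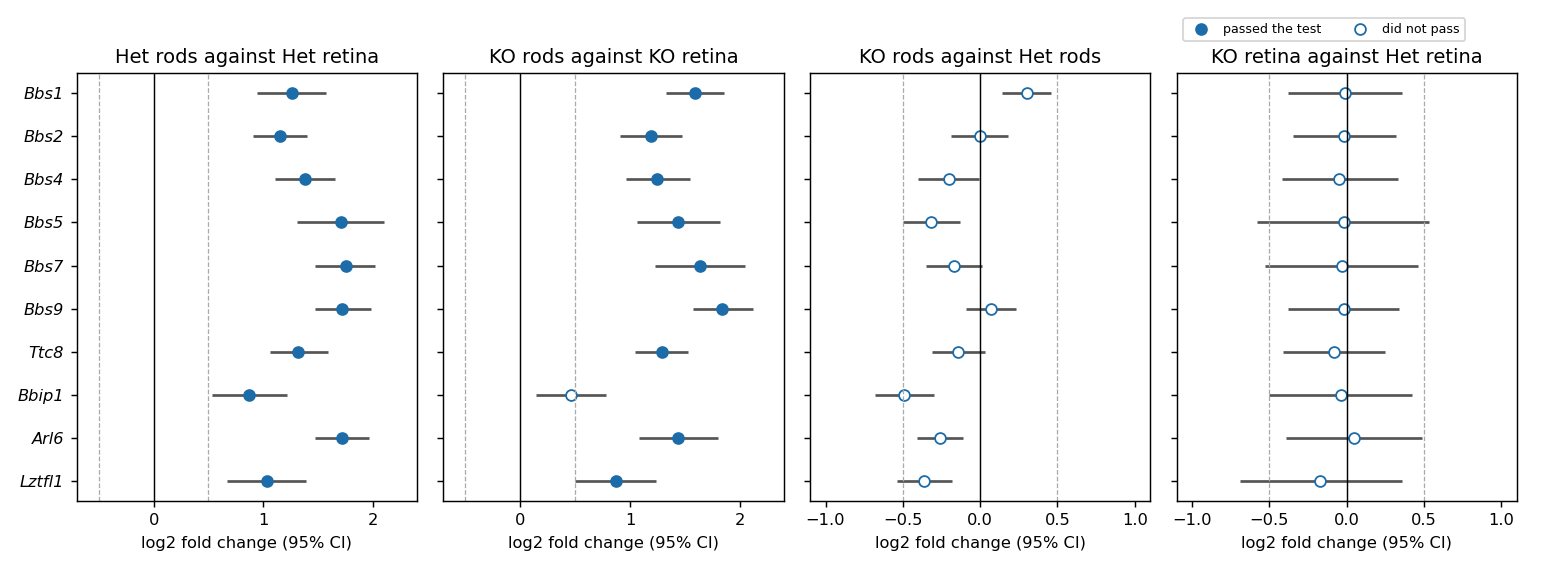
Log2 fold change (horizontal axes) of each member (vertical axis) in the 4 comparisons named above the panels, with 95% confidence intervals; filled points passed the test, open points did not, and dashed lines mark the fold threshold of 0.5. All 10 points of Het rods against Het retina are filled, 9 of 10 for KO mice, and none in the 2 comparisons of KO with Het, where the rod differences run from -0.49 to 0.30.

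The order of the members in KO against Het rods ran with the GC content of their transcripts. GC of the longest transcript was lowest in Lztfl1 (37.47%), Bbs5 (39.92%), Arl6 (40.45%) and Bbip1 (40.63%), which were the 4 lower in KO rods at an adjusted p below 0.05, and highest in Bbs1 (51.79%), the 1 that was higher. Ttc8 (44.59%), Bbs7 (44.73%), Bbs4 (46.66%), Bbs9 (48.70%) and Bbs2 (50.07%) lay between. The same relation held across all genes tested, with a Spearman correlation of 0.73 between GC and log2 fold change over 10038 genes, which share the same 6 libraries. Genes within 2.5 points of a member's GC had a median difference of -0.26 for Arl6, the same as Arl6 itself, and of -0.27 for Lztfl1, -0.26 for Bbs5 and -0.18 for both Bbs7 and Ttc8. Bbip1 and Bbs1 stood further from genes of like GC, at -0.49 against -0.25 and at 0.30 against 0.11.

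With the GC trend of each library removed, the members' differences between KO and Het rods ran from -0.14 to 0.27, 9 of 10 were positive, and the median was 0.08 against 0.09 over all genes. The differences of Arl6 (0.09, adjusted p = 0.409), Bbs5 (0.04, adjusted p = 0.772) and Lztfl1 (0.03, adjusted p = 0.83) changed sign, and Bbip1 was at -0.14 (adjusted p = 0.288), all from limma. Bbs1 stayed at 0.27 (adjusted p = 0.0189, limma), and Bbs9 reached 0.21 (adjusted p = 0.0355, limma), both under the fold threshold. The GC trend separated the rod groups: the 10% of genes richest in GC minus the 10% poorest stood at -0.83, -0.24 and -0.43 log2 units in Het rods and at 0.42, 0.79 and 0.29 in KO rods, relative to the mean of the 6 libraries. GC trend and genotype therefore cannot be told apart in rods.

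**Figure D4:**
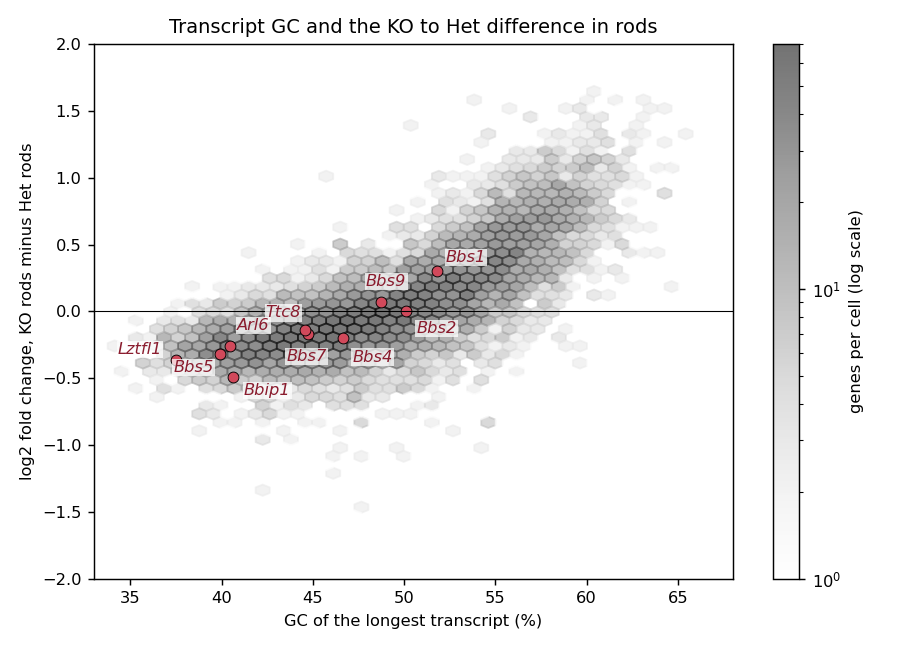
Log2 fold change of KO minus Het rods (vertical axis) against the GC content of the longest transcript (horizontal axis, %) for all tested genes (grey cells, shaded by the number of genes on a log scale, differences from -2 to 2 drawn) and for the 10 members (red points). The members follow the band of all genes, from Lztfl1 at 37.47% GC and -0.36 to Bbs1 at 51.79% GC and 0.30, and Bbip1 lies toward its lower edge.

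In whole retina none of the 10 members differed between KO and Het by the test, and 0% of all 16863 genes passed (limma); counting every unadjusted p below 0.05, 82 genes (0.486%) were higher and 58 (0.344%) lower, and 0 members were among them. The members' differences ran from -0.17 (Lztfl1) to 0.05 (Arl6), and the KO and Het ranges of all 10 overlapped, where 1.46% of all genes lay above and 2.15% below without overlap. The 95% confidence intervals were widest for Lztfl1 (-0.69 to 0.36) and Bbs5 (-0.58 to 0.53) and narrowest for Bbs2 (-0.35 to 0.32) and Ttc8 (-0.41 to 0.25). A difference of the size seen in rods, such as -0.49 for Bbip1, lay within the retina interval of the same gene (-0.50 to 0.42), so a difference of that size in retina was not excluded.

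Retina libraries differed among themselves within a genotype. Het retina replicate 2 and KO retina replicate 3 had the lowest value of their group for Bbs4, Bbs5, Bbs7, Bbip1, Arl6 and Lztfl1 and the highest for Bbs1. The same 2 libraries had the strongest GC trend, at 0.85 and 0.90 log2 units, against -0.83 to 0.01 in the other 4. Lztfl1, for example, lay 0.23 and 0.41 log2 units under its retina mean there, while Bbs1 lay 0.23 and 0.16 above it. Those libraries also held 1.76% and 5.65% mRNA of the lens markers, and Het retina replicate 3 held 1.81% with a GC trend of -0.83. The part of lens mRNA in these differences was not tested. Without KO retina replicate 3 the members' differences ran from -0.10 to 0.21, and without Het retina replicate 2 from -0.35 to 0.08.

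**Figure D5:**
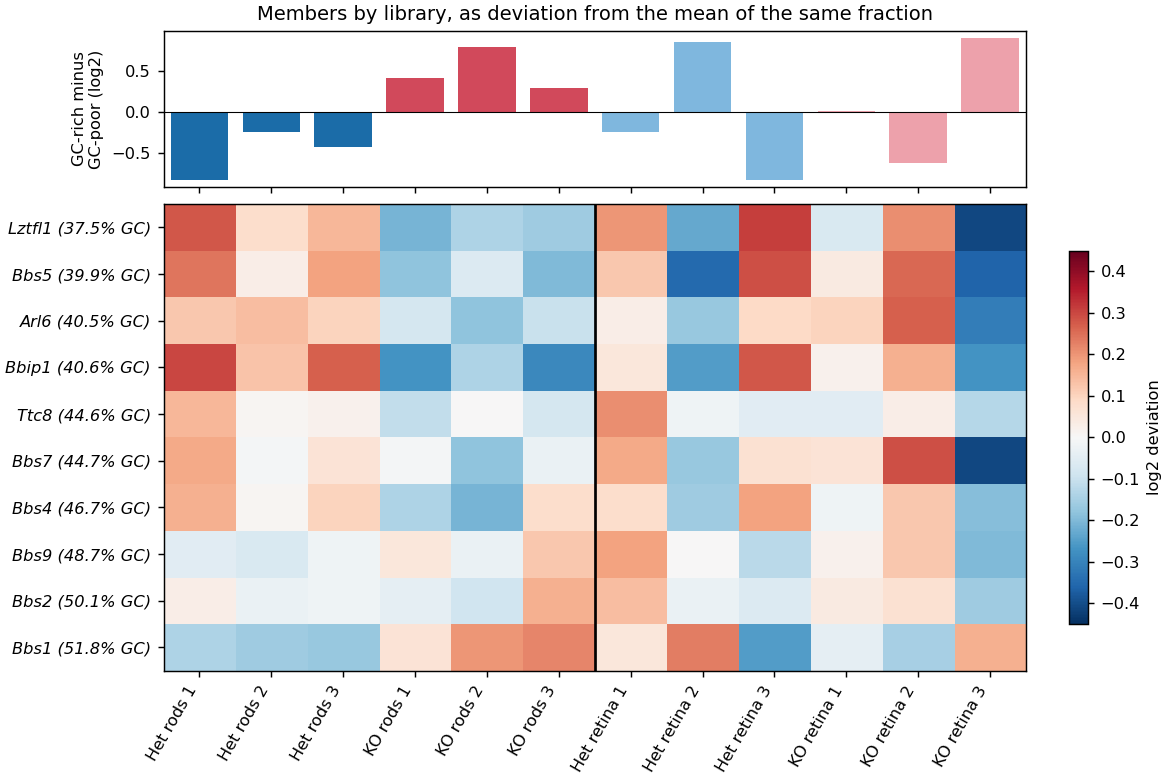
Log2 deviation of each member (rows, ordered by transcript GC) from its mean over the 6 libraries of the same fraction (colour), with the GC trend of each library above (GC-rich minus GC-poor genes, log2). In rods the 4 members lowest in GC are above their mean in all Het libraries and below it in all KO libraries while Bbs1 runs the other way, and in retina the 2 libraries with the highest GC trend, Het replicate 2 and KO replicate 3, are below the mean for the same 4 members and above it for Bbs1.

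The KO effect in rods was then compared directly with the KO effect in retina over all 12 libraries. No member passed, and 0% of 17192 genes did (limma); without adjustment, p was below 0.05 for 359 genes in the higher direction and 158 in the lower. The members ran from -0.41 for Bbip1 (95% confidence interval -0.85 to 0.03, adjusted p = 0.888, limma) to 0.34 for Bbs1 (-0.04 to 0.73, adjusted p = 0.888, limma), so a rod effect different from that in retina was not shown for any of them.

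The promoters of the 10 genes were searched for the X-box, the DNA element bound by RFX factors at ciliary genes, and for the core bound by CRX-type homeodomain factors of photoreceptors. The windows were RefSeq promoters of GRCm38.p6, from 250 bases before to 50 bases after each start, and both strands were read. The X-box was searched as GTTNCC, any 3 bases, then GNAAC, and at this spacing matched only Bbs7 among the members, while 0.936% of 27025 genes held a match. The Lztfl1 promoter held the same fixed letters with a longer gap, GTTGCC, then ATTG, then GCAAC, which the search counted as 2 letters different. Other spacings were not searched in the members or in all genes, so X-boxes of other members were not excluded. The letters TAATCC matched only Bbs1, against 8.14% of genes. The 2 windows are shown because they hold the only full matches at the spacing searched. They belong to the most rod-enriched member of Het mice (Bbs7) and the member with higher values in KO rods (Bbs1). They read 5′ to 3′ on the strand of the gene (minus for both), with the matched letters in capitals, at chr3:36613485-36613522 for Bbs7 and chr19:4906795-4906848 for Bbs1.
Bbs7 promoter: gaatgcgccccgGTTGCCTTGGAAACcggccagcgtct
Bbs1 promoter: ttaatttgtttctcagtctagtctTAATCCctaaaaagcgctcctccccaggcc
The Bbs7 match ended 107 bases before the RefSeq start. Allowing 2 of the 9 fixed letters to differ gave a match in the 250 bases before the start of 5 of 10 members, against 40.2% of all genes, so a loose match did not set the members apart. A match is a description of the sequence and not a bound site.

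Of the factors themselves, Crx, Nrl, Nr2e3 and Otx2 were all higher in Het rods than in Het retina, by log2 fold changes of 1.52, 1.83, 1.64 and 0.87, and none passed between KO and Het rods. Of 7 RFX and FOXJ1 factors, 5 could be tested between Het rods and Het retina, 2 were lower and none was higher, where 36.4% of all genes tested passed as lower. Rfx7, with the highest mean value not divided by length, was at 728.7 ± 66.4 in Het rods and 791.3 ± 149 in Het retina (SD, n = 3). Between KO and Het rods, 2 of 4 tested passed as higher, where 13.2% of all genes did. They were Rfx2 by 0.69 (adjusted p = 0.0497, limma) and Foxj1, a regulator of motile cilia, by 1.26 (adjusted p = 0.0167, limma) from a mean of 5.762 to 17.29. Foxj1 passed the filter only through its KO rod values (deposited 12, 16 and 16, against 5, 6 and 5 in Het rods). Its direction was therefore set by the filter, and its call is not a result. Rfx2 and Foxj1 are both rich in GC (58.51% and 61.38%), and with the GC trend removed neither passed (0.12 and 0.50). Rfx2 did not pass with RLE scaling either (0.66, adjusted p = 0.0557, limma).

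Of 11 listed chaperonin genes, 9 were higher in Het rods: all 8 CCT subunits and 1 of 3 chaperonin-like genes. Of all genes tested, 22.7% passed as higher. Mkks, Bbs10 and Bbs12 are chaperonin-like proteins that fold Bbs7 and help to build the core. Mkks was higher in Het rods, at 621.1 ± 54.3 against 395.7 ± 43.9 in Het retina (log2 fold change 0.65, SE 0.14, adjusted p = 0.0037, limma). Bbs10 (0.43, adjusted p = 0.0759) and Bbs12 (-0.35, adjusted p = 0.06, both limma) did not pass, so 1 of 3 did; Mkks did not pass with the GC trend removed (0.41) or with library totals alone (0.21), while Bbs12 passed as lower in both settings (-0.61, adjusted p = 2.8e-04, and -0.79, adjusted p = 0.00178, limma). The CCT chaperonin, which works with them, had 8 of 8 subunits higher in Het rods, with a median of 1.03, from 0.72 for Tcp1 to 1.34 for Cct4. None of these 11 genes passed between KO and Het rods, where Cct5 was at 0.33 (adjusted p = 0.0075, limma) and Tcp1 at -0.32 (adjusted p = 0.0211, limma), under the fold threshold.

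Other genes of Bardet-Biedl syndrome passed as higher in Het rods for 6 of 9 (22.7% of all genes) and as lower for 1 of 9 (36.4%). Cep290, a transition zone protein, had the highest mean value not divided by length and was higher by 0.85 (SE 0.16, adjusted p = 0.00191, limma), and Ift74 by 1.45 (SE 0.15, adjusted p = 6.1e-05, limma). Trim32, a ubiquitin ligase expressed in many tissues, was the 1 that was lower (log2 fold change -1.23, adjusted p = 3.2e-04, limma). None of the 8 that were tested passed between KO and Het rods.

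The IFT trains on which the BBSome rides were enriched in part, where 22.7% of all genes tested passed as higher in Het rods. Of 14 listed IFT-B subunits 10 were higher in Het rods (median 0.66), with Ift80 at 1.34 (the highest mean value not divided by length, SE 0.14) and Ift20 at -0.04 (adjusted p = 0.826, limma). Of 6 IFT-A subunits 5 were higher (median 1.05), Ift122 by 1.1 (SE 0.20, adjusted p = 0.00132, limma) and Wdr35 by 1.30 (SE 0.11, adjusted p = 1.8e-05, limma). Between KO and Het rods 2 of 14 IFT-B subunits were lower (1.86% of all genes). They were Ift81 (log2 fold change -0.53, SE 0.08, adjusted p = 0.00326, limma) and Hspb11 (Ift25), which is needed for BBSome export (log2 fold change -0.52, SE 0.16, adjusted p = 0.029, limma). With the GC trend removed these were at -0.22 and -0.20 and did not pass. No IFT-A subunit passed, with Ift140 at 0.38 (adjusted p = 0.0178, limma) and Ift122 at 0.31 (adjusted p = 0.0262, limma).

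Among 11 partners of the BBSome, 6 were higher in Het rods (22.7% of all genes). Arl13b, a GTPase of the ciliary membrane, was higher by 1.40 (SE 0.13, adjusted p = 3.1e-05, limma), and Pcm1, the centriolar satellite protein that binds Bbs4, by 0.58 (SE 0.15, adjusted p = 0.00868, limma), although not with the GC trend removed (0.33). In KO rods Cep131, a satellite protein, was higher than in Het rods (85.05 ± 20.8 against 38.18 ± 4.86, log2 fold change 1.07, adjusted p = 0.00693, limma) and Hspb11 was lower. Of all genes, 13.2% passed as higher and 1.86% as lower. With the GC trend removed Cep131 was at 0.31 and did not pass.

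Proteins known as cargo of the complex differed by kind. Stx3, an inner segment protein that gathers in the outer segment when the BBSome is missing, was higher in Het rods than in Het retina, by 0.94 (SE 0.10, adjusted p = 6.9e-05, limma). Snap25 (-0.24) and Vamp2 (0.45) did not pass. None of these 3 passed between KO and Het rods, with Stx3 at -0.23 (adjusted p = 0.0707, limma). Receptors that the BBSome carries in other ciliated cells had lower values in Het rods, with 5 of 5 tested passing against Het retina (36.4% of all genes). Among them were the hedgehog receptors Smo (8.655 ± 2.92 against 311.9 ± 65.5) and Ptch1 (1174 ± 118 against 1778 ± 187). Smo, Gpr161, Sstr3 and Mchr1 passed the filter only through their retina values, so their direction was set by the filter and the count is not a result. Only Ptch1 was well above the filter in both fractions, and it was lower by a log2 fold change of -0.6 (adjusted p = 0.00351, limma).

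The 5 genes whose pattern over the 12 libraries was most like the mean log2 value of the 10 members, among 11732 genes above the filter in every library, were Nt5e (Pearson r = 0.9995), Fabp12 (0.9987), Cplx4 (0.9985), Vopp1 (0.9985) and Ndrg3 (0.9985). Nt5e, an ecto-nucleotidase on the rod surface, had deposited values of 10542, 9212 and 9861 in Het rods, 8155, 7852 and 8744 in KO rods, 4266, 3181 and 3918 in Het retina, and 3699, 4051 and 2790 in KO retina. The correlation rests mostly on the gap between rods and retina, which all 12 libraries share.

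The genes lie on chromosomes 2, 3, 8, 9, 12, 16 and 19 of GRCm38 (GENCODE), with Bbs4, Bbs9 and Lztfl1 on chromosome 9 and Bbs1 and Bbip1 on chromosome 19. Bbs1 spans chr19:4886878-4906628 on the minus strand, Bbip1 chr19:53929861-53944627 on the minus strand and Arl6 chr16:59612949-59639391 on the minus strand. Exons of 4 members overlap a gene on the opposite strand: Bbs4 shares 194 bases with Adpgk, Bbip1 97 with Shoc2, Arl6 55 with 4930547E14Rik and Lztfl1 490 with Gm17200, 2.2% to 4.39% of each member's exon bases. Whether strand was used in counting is not given in the sources used here, so reads in these stretches may belong to either gene.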

How the data were processed

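RNA of 12 mouse libraries (4 groups of 3, named by genotype and tissue with replicate numbers from the titles) was made into cDNA with SMART-Seq V4 and sequenced. The deposited values are a signal proportional to reads per gene: before deposit, the authors' processing brought the libraries of a fraction to near-equal totals in whole numbers, which is read here from the values and not stated. The submitters' processing notes name CASAVA 1.8.2, HISAT2, DESeq2, edgeR and GRCm39; annotation and strand of counting are not given in the sources used here, and the table had 0 columns of other samples. Because the values are scaled, no count model was used, and limma 3.58.1 (R 4.3.3, trend and robust options) was run on log2(TMM-scaled value + 2) with TMM factors computed for this work, a scale that understates the changes of low genes. Genes entered with a value of about 10 in at least 3 libraries and a sum of at least 15. KO and Het rods were compared after leaving out genes that passed as depleted in rods. Gene lists and positions came from hand-written lists and GENCODE GRCm38, and promoters from RefSeq. Floors and intervals for reads cover counting error only (3 reads were 1.2e-05% to 3e-05% of a library, for the 11 libraries whose factor could be estimated).

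The fits were tested on simulated data with a set spread between libraries. With 200 genes changed by 1 log2 unit, KO against Het rods recovered 95.5% of them. With a GC trend of a set size added and not removed, 83.47% of 1125 calls were false. The reported fit does not remove the trend either, but the simulated trend was not fitted to these libraries. This share therefore does not carry over to the reported calls. With the simulated trend removed, 2.56% of 195 calls were false. Of changes of 0.3 log2 units, 2.5% reached the adjusted p. The fits were repeated with other scalings, pseudocounts of 0.5 and 8, no filter, 1 fit of all libraries, a replicate block, the GC trend removed (lowess per library) and each library left out. Same-numbered Het rod and Het retina libraries deviated together (correlations 0.62, 0.53 and 0.29, from the numbers in the titles). Whether a shared number marks 1 mouse or shared handling cannot be told from this. The values reported come from the fit without pairs, and a fit with same-numbered libraries as a block was an alternative. Genes named beside the members were all genes of lists of up to 4 genes, and of longer lists the gene with the highest mean value (not divided by length), the one with the largest rise, the one with the largest fall in Het rods and those that passed in KO rods, with some genes not reported here. The members and lists were chosen with earlier results of these data known, and the search for loose X-box matches was added after seeing the data.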

Additional observations from a re-analysis of the deposited data

How the results depend on the processing

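Of 810 member values under alternative settings, 70 changed sign, and 7 of those had an adjusted p below 0.05 in the reported fit or the alternative. In all, 794 kept their side of the threshold and their direction or changed sign without an adjusted p below 0.05 in either fit. With the GC trend removed, KO against Het rods gave 0.04 for Bbs5, 0.09 for Arl6 and 0.03 for Lztfl1, which had been negative, and the same 3 values with the GC trend removed and the replicate block. With library totals alone Bbip1 was at -0.1 in KO rods against KO retina, where the median of all genes was -0.55. The count of members lower in KO rods was 0 as reported, 1 with RLE scaling and 1 with library totals (Bbip1), and 0 to 1 with single libraries left out. For Het rods against Het retina, where same-numbered libraries deviated together, the replicate block kept 10 members higher. It gave 3890 genes higher in total against 3650. For Het and KO rods, which are different mice, same-number correlations were 0.16, 0.09 and 0.13, with all 6 libraries best correlated with their own number. They were 0.49, 0.01 and 0.24 for KO rods and KO retina, and 0.51, -0.7 and -0.26 for retina. In these comparisons the replicate block changed no member call.

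Over all genes, KO against Het rods gave 1334 higher and 188 lower, 316 and 97 with the GC trend removed, 854 and 474 with library totals, 1185 and 268 with RLE scaling, and 0 and 0 with 1 spread over 12 libraries. The share of higher calls was 87.6%, against 76.5% with the GC trend removed and 64.3% with library totals. For Het rods against Het retina that share was 38.4%, and 13.6% with library totals (1168 higher); for KO mice it was 42.8% and 12.7%. With library totals the counts higher in Het rods were 5 of 8 CCT subunits, 4 of 14 IFT-B subunits, 1 of 11 partners, 2 of 9 other Bardet-Biedl genes and 3 of 4 photoreceptor factors, while IFT-A stayed at 5 of 6; 4 of 5 RFX and FOXJ1 factors were then lower. With the GC trend removed no gene of these lists passed between KO and Het rods. With 3 libraries per group, an exact permutation test of 1 gene cannot go below 0.1.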
